A study of Mus musculus with 40 samples.

Results

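The genes described here are 38 genes of cell division, chosen by name and centred on Tpx2, the microtubule-binding protein that activates the kinase Aurora A on the mitotic spindle. All 38 were found among the 22844 genes of the deposited tables. Each name matched 1 row. RNA was sequenced from the extensor digitorum longus (EDL), a fast hindlimb muscle, of 40 mice carrying the floxed Tsc1 allele of the strain labelled Tsc1tm1Djk/J. Mice whose muscle fibers lacked Tsc1 (TSCmKO) were compared with floxed Tsc1fl/fl mice (CON) at post natal month 3 or 9, after 3 days of intraperitoneal vehicle or rapamycin (RM). This gave 8 groups of 5 mice: 3mCON, 3mCON+RM, 3mTSCmKO, 3mTSCmKO+RM, 9mCON, 9mCON+RM, 9mTSCmKO and 9mTSCmKO+RM. The sources used here state the rapamycin dose differently, so no dose is given. The deletion is constitutive and aimed at muscle fibers, so the other cells of the muscle should keep both alleles, and the driver of the Cre recombinase was not named in the sources used here. TSC1 restrains mTORC1, the growth-promoting kinase complex that rapamycin inhibits. The question put to the data was whether Tpx2 moved with the other mitotic genes when Tsc1 was lost and when rapamycin was given.

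Cells that divide switch on a shared set of genes in order. E2F factors drive the replication genes (the MCM helicase, Pcna, Rrm2) as DNA synthesis begins, and a later transcription complex drives the mitotic genes (cyclin B, Plk1, the kinesins, Aurora kinases, Tpx2) through CCAAT boxes and cell cycle homology (CHR) elements in their promoters. The nuclei inside a mature muscle fiber do not divide, so in whole muscle these transcripts are usually attributed to satellite cells and to immune, endothelial and connective tissue cells.

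Total estimated counts ran from 8883870 to 35224669 per library. Levels are given as CPM (counts scaled to the library total) after scaling between libraries by the trimmed mean of M values (TMM), and as TPM (scaled by transcript length as well) where genes are compared with each other, since TPM accounts for transcript length. A gene was tested if it reached 1 CPM in at least 5 libraries, which 13543 genes and 21 of the 38 members did. In every comparison a gene was called when its adjusted p (edgeR quasi-likelihood test, Benjamini-Hochberg over all genes tested) was under 0.05. The deletion itself was visible in all libraries: Tsc1 lay between 17.8 and 35.8 CPM in the TSCmKO libraries and between 51.3 and 134 CPM in the CON libraries. In bulk RNA, fewer cells of a type and less RNA per cell cannot be told apart.

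A few libraries stood apart in markers of blood and marrow cells. In 3mTSCmKO replicate 4, the summed CPM of 5 neutrophil and precursor markers was 35.9, against 0.0845 to 6.48 in all other libraries. The 6 erythroid markers summed to 9038 CPM in 3mTSCmKO replicate 3 and to 7064 CPM in 9mCON replicate 1, and the 7 lymphocyte markers to 20.9 CPM in 3mTSCmKO replicate 3. In 9mCON+RM replicate 1 the erythroid sum was 2829 CPM, against 234 to 543 CPM in the rest of its group. Replicate 4 of 3mTSCmKO also had the highest Schwann cell sum of its group (5 markers, 201 CPM against 63.2 to 107 CPM) and was the library of its group with the highest value for 25 of the 38 members. Counts of called members are therefore also given from a fit of 37 libraries without the replicates 3 and 4 of 3mTSCmKO and replicate 1 of 9mCON, an alternative chosen after the data had been seen. A fit of 36 libraries that also left out 9mCON+RM replicate 1 was added later. The satellite cell markers Pax7, Myf5, Myod1, Calcr, Vcam1 and Sdc4 had a summed CPM with group medians between 51.2 and 68.0. Their sum was 74.6 CPM in 3mTSCmKO replicate 4, against 44.9 to 56.5 CPM in the rest of that group, and it was highest of all 40 libraries in 9mTSCmKO replicate 1, at 91.4 CPM. The part of any cell type in the results was not tested.

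Promoter sequences were looked up for all members, because the mitotic genes are known to share promoter elements, and 33 of 38 were matched in RefSeq (GRCm38.p6, 250 bases before to 50 after the transcription start). Promoters of Tpx2, Mcm4, Kif20a, Ccna2 and Aurkb were not matched. Searched on both strands and irrespective of overlap with each other, a CCAAT box (CCAAT) was present in 28 of 33 promoters (84.8%), against 37.4% of 32851 promoters in the same table. A CHR-like word (TTTGAA or TTTAAA) was present in 25 (75.8%) against 27.6%. Both were present in 23 (69.7%) against 10.7%. An E2F word (TTTCCCGC or TTTGGCGC) was present in 6 (18.2%) against 1.56%. Promoters of 4 members are shown 5′ to 3′ on the gene's strand, with these words in capitals: Aurka (chr2:172370521-172370820, minus strand), which was lower in TSCmKO at both ages, Kif11 (chr19:37376132-37376431, plus strand), which was higher at both ages, and Rrm2 (chr12:24708004-24708303, plus strand) and Mcm6 (chr1:128359656-128359955, minus strand), which were higher at 9 months.
Aurka: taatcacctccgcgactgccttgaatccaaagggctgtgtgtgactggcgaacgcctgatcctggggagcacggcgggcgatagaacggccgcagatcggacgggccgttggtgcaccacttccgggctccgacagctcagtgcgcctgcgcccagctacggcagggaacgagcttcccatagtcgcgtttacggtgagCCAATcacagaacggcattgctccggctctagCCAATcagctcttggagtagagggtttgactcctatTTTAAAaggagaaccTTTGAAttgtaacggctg
Kif11: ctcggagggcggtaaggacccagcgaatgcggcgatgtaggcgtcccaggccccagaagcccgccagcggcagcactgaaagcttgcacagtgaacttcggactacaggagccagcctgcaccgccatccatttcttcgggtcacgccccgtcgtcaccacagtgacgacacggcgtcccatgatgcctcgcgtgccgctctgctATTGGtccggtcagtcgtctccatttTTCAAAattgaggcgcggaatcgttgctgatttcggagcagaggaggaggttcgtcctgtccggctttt
Rrm2: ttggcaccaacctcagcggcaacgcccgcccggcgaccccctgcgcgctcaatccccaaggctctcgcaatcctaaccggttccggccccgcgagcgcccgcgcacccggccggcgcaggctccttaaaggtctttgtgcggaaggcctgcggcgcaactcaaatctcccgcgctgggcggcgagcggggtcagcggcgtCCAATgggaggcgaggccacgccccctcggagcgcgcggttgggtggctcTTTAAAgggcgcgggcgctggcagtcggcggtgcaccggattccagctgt
Mcm6: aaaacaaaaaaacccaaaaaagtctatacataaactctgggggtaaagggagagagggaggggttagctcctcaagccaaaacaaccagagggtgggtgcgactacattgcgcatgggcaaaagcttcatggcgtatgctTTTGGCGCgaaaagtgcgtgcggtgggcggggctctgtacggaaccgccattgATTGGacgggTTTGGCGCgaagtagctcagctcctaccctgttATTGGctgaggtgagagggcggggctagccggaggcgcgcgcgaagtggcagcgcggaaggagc
Aurka, Kif11 and Rrm2 all held a CCAAT box and a CHR-like word in this window, and their levels in TSCmKO muscle went in different directions. A match of letters is a description and not a site.

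Tpx2 (ENSMUSG00000027469) lies at chr2:152847964-152895321 on the plus strand of GRCm38 in the GENCODE M21 annotation. Its first 120 coding bases are shown because they encode the amino-terminal end through which the protein binds and activates Aurora A, and because they lie in 2 exons (exon 3, chr2:152867252-152867357, and exon 4, chr2:152869653-152869666) that 3 coding transcripts of Tpx2 share. The start codon is in capitals.
Tpx2 coding start: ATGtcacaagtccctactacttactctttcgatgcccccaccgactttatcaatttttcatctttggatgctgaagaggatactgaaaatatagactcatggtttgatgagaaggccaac
The coding sequence is 2235 bases long. A mean transcript length was worked out for each gene from the ratio of its count to its TPM, a scale that put 97.4% of 228 genes with a single transcript within 2% of their annotated length. For Tpx2 the group means of this length ran from 3256 ± 241 nt (SD, n = 5) in 9mTSCmKO+RM to 3704 ± 51.2 nt in 3mTSCmKO. The coding transcripts that meet the annotation filter stated for the study (protein coding, transcript support level 1 to 3) are 3483, 3654 and 4161 nt long. The mean length was lowest in the rapamycin-treated TSCmKO groups, at 3311 ± 184 nt in 3mTSCmKO+RM, and it lay below the shortest of these transcripts there and in 3mCON and 3mCON+RM. No test was made of these lengths, and the exact set of transcripts behind the tables could not be settled.

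Most members were scarce in EDL muscle. By mean TPM in 3mCON, Pcna, the sliding clamp of the replication fork, was highest at 40.6, followed by Aurka at 11.9, the helicase subunit Mcm7 at 11.4 and Mcm2 at 5.53, and Tpx2 stood at 3.20. Bub1, Bub1b, Cenpf and Ncapg were at or below 0.113 TPM in that group. The 17 members that did not pass the filter were Aurkb, Plk1, Cdk1, Ccna2, Ccnb1, Ccnb2, Bub1, Cdc20, Cenpe, Cenpf, Kif23, Kif4, Nusap1, Ncapg, Mki67, Ect2 and Cdc6, and these include most of the genes that define a cell in mitosis. Their values add up to 1.38 to 10.9 CPM per library. No test was made of them.

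**Figure D1:**
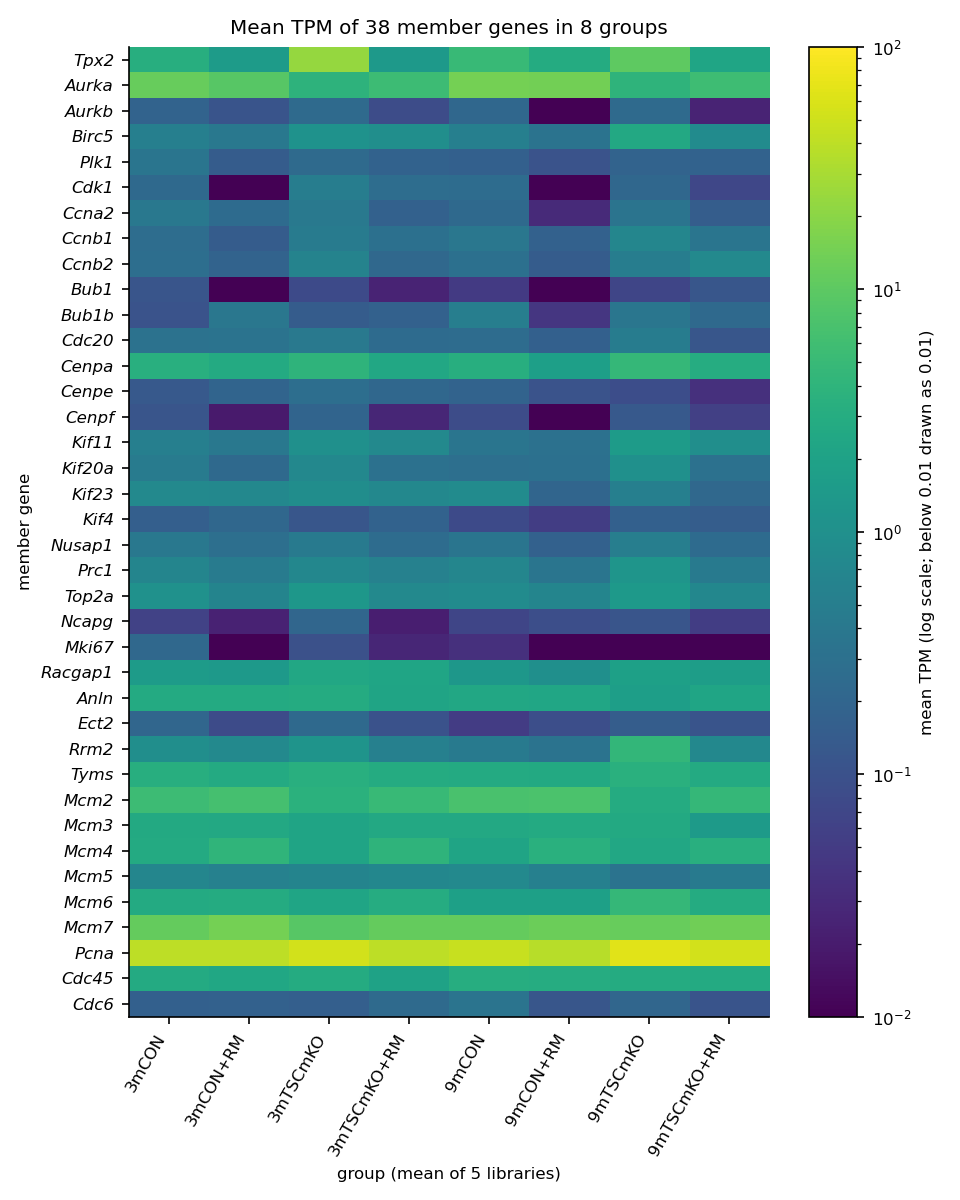
Mean TPM (colour, log scale, values below 0.01 drawn as 0.01) of the 38 members (rows, ordered by role) in the 8 groups (columns, means of 5 libraries). Within its row Tpx2 is brightest in 3mTSCmKO at 23.3 TPM and in 9mTSCmKO at 10.4 TPM, while Mki67, Bub1 and Cenpf stay near the dark end in all groups.

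Mki67, the usual marker of proliferating cells, had 0 to 3 counts in every library and could not serve as a reference for Tpx2. The annotation bears on this value. The full-length Mki67 transcript (10061 nt) has support level 5 and lies outside the filter stated for the study, which leaves a coding transcript of 575 nt, and the length worked out from the tables was 575 nt, or 5.72% of the full length. For Cenpe and Cenpf, 2 large kinetochore proteins, the longest transcript inside the filter has 582 of 7910 nt and 3001 of 11130 nt, and the lengths worked out were 675 and 2707 nt. The stated filter does not describe the whole table, however. The length worked out for Cenpe exceeds its single transcript inside the filter, and Ncapg, whose sole coding transcript of 3703 nt has support level 5, nevertheless had counts and a length of 2065 nt. For Kif20a, a tested member, the length was 3566 nt. Its longest transcript inside the filter has 3146 nt and its longest coding transcript 3674 nt. The lengths of all of these genes were shorter than the full transcripts, and the effect of this on the comparisons was not tested. Of the other members, Tyms shared 6.10% of its 31-base words with other annotated transcripts, mainly Jakmip2, and no other member shared more than 5%.

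Tpx2 was the member with the largest genotype difference at 3 months. It measured 4.98, 5.64, 7.44, 5.24 and 6.0 CPM in the 5 3mCON libraries and 60.4, 60.4, 48.9, 24.4 and 40.2 CPM in the 5 3mTSCmKO libraries. The groups did not overlap, and the lowest TSCmKO value was that of replicate 4, the library high in neutrophil markers. Tpx2 rose 7.96-fold (log2 fold change 2.99, SE 0.29, adjusted p = 4.00e-10, edgeR), and the log2 fold change was 3.21 (adjusted p = 4.23e-10) in the fit of 37 libraries. At 9 months the values were 12.6, 11.7, 11.4, 8.68 and 6.97 CPM in 9mCON and 27.0, 11.4, 15.0, 16.2 and 31.5 CPM in 9mTSCmKO. These groups overlapped in 9mTSCmKO replicate 2. The rise was 1.98-fold (0.99, SE 0.27, adjusted p = 0.00404). The genotype effect was smaller at 9 than at 3 months, with an interaction term of -2.01 (log2; SE 0.39, adjusted p = 0.00136), and within TSCmKO muscle Tpx2 fell by 1.2 (SE 0.26, adjusted p = 0.000554) from 3 to 9 months, with 1 fit changing that call: with insert size, which differs between the ages, as a covariate (9mTSCmKO+RM replicate 5 has none and was left out), the adjusted p was 0.0594. In CON muscle the age difference was 0.80 (SE 0.28, adjusted p = 0.137, or 0.0482 with 9mCON replicate 5 left out).

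In TSCmKO muscle given rapamycin, Tpx2 lay below its level in vehicle-treated controls of the same age, a relation read from the libraries and not tested. The 3mTSCmKO+RM libraries held 1.99, 2.48, 2.70, 1.73 and 3.26 CPM, all below every 3mCON library, and against 3mTSCmKO the log2 difference was -4.28 (SE 0.31, adjusted p = 8.76e-13), a 19.4-fold difference. In 9mTSCmKO+RM it was 6.81, 2.59, 2.94, 5.03 and 3.11 CPM, without overlap with 9mTSCmKO, and it fell by 2.33 (SE 0.29, adjusted p = 1.20e-07). In CON muscle the differences had the same sign and did not pass the test. The 3mCON+RM libraries held 1.70, 3.26, 3.48, 2.28 and 3.90 CPM, below every 3mCON library, but the log2 difference of -1.01 (SE 0.31) had an adjusted p of 0.144. DESeq2 and a fit of the groups compared alone gave the same size of difference with adjusted p = 0.0385 and 0.0146. The 9mCON+RM libraries held 6.82, 6.74, 2.97, 5.33 and 9.11 CPM, overlapping 9mCON, and the difference of -0.72 (SE 0.28) had an adjusted p of 0.0983. The log2 difference of Tpx2 with rapamycin was more negative in TSCmKO than in CON. The interaction terms were -3.27 at 3 months (log2; SE 0.43, adjusted p = 6.02e-06) and -1.61 at 9 months (SE 0.40, adjusted p = 0.0144). The term at 9 months did not pass when only the groups compared were fitted (-1.60, adjusted p = 0.0633). With rapamycin in both genotypes, Tpx2 did not pass the test at 3 months, where the difference was -0.28 (SE 0.32, adjusted p = 0.711, from -0.40 to -0.13 with 1 library left out), or at 9 months, where it was -0.62 (SE 0.30, adjusted p = 0.144), although with 9mTSCmKO+RM replicate 1 left out the latter passed (adjusted p = 0.0395).

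**Figure D2:**
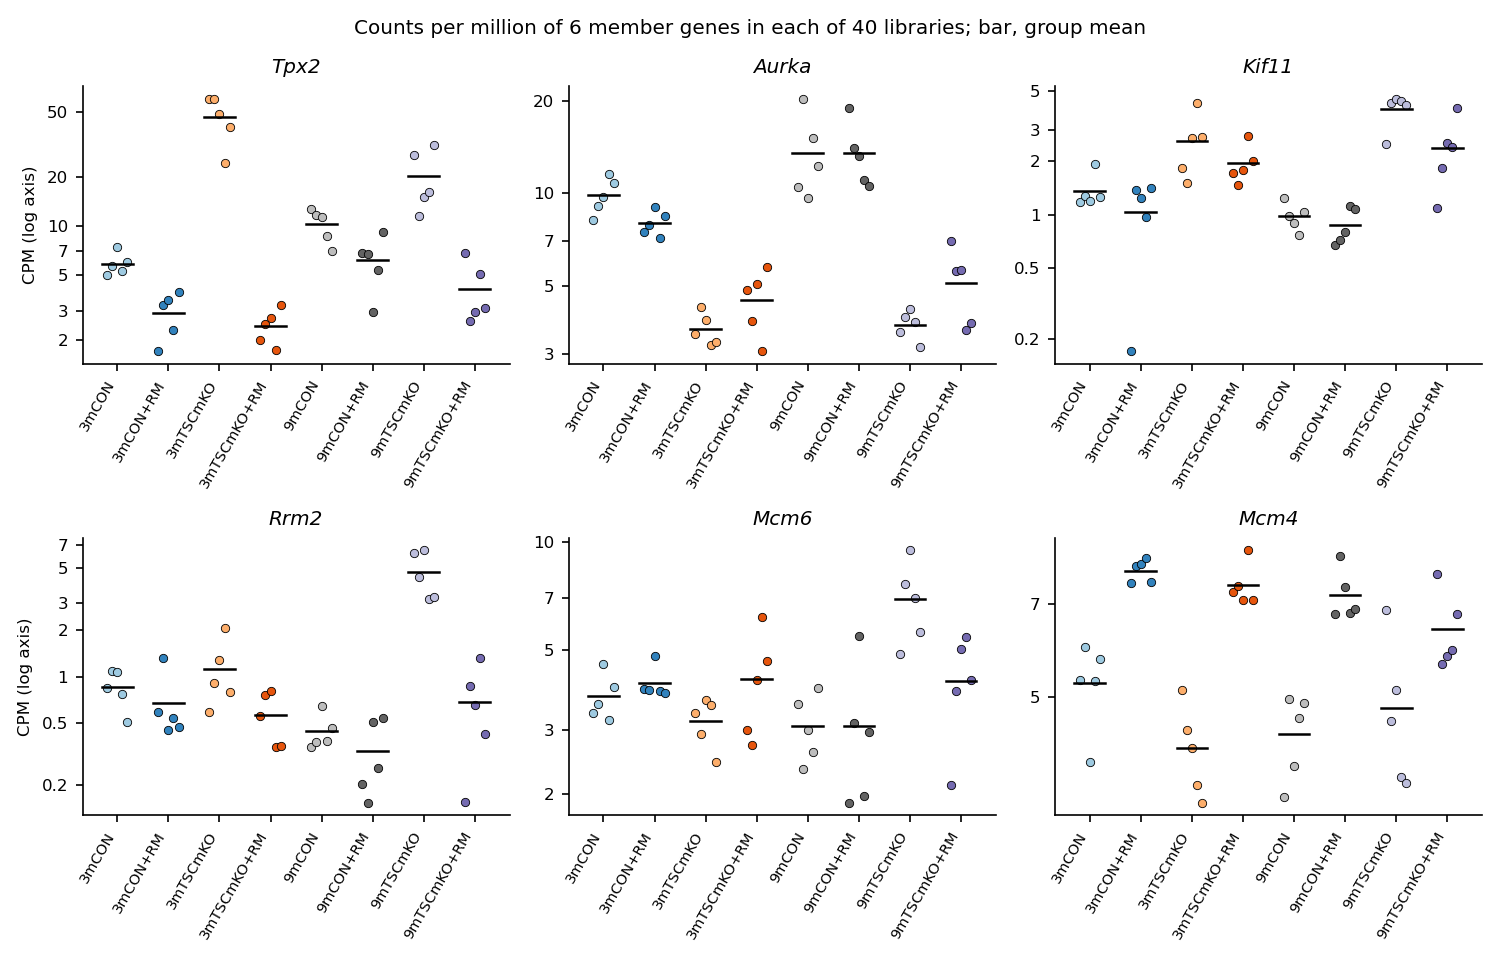
CPM (log axis) of Tpx2, Aurka, Kif11, Rrm2, Mcm6 and Mcm4 in each of the 40 libraries (points, 5 per group in replicate order) with group means (bars). The Tpx2 mean is 46.9 CPM in 3mTSCmKO with vehicle and 2.43 CPM after rapamycin, Aurka is low in all 4 TSCmKO groups, and Mcm4 is high in the 4 rapamycin groups.

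Aurka, the kinase that Tpx2 activates, went the other way. It was 8.17, 9.10, 9.75, 11.6 and 10.8 CPM in 3mCON and 3.49, 4.25, 3.85, 3.20 and 3.27 CPM in 3mTSCmKO. At 9 months it was 10.5, 20.3, 9.66, 15.1 and 12.3 CPM in 9mCON and 3.54, 3.94, 4.19, 3.81 and 3.15 CPM in 9mTSCmKO. In both comparisons every TSCmKO library lay below every CON library, and Aurka fell by 1.46 at 3 months (log2; SE 0.19, adjusted p = 2.02e-07) and by 1.86 at 9 months (SE 0.19, adjusted p = 3.96e-10). With rapamycin in TSCmKO muscle, Aurka did not pass the test, with differences of 0.32 in the younger mice (SE 0.19, adjusted p = 0.251) and 0.45 in the older (SE 0.19, adjusted p = 0.0692), the latter passing when 9mTSCmKO+RM replicate 4 or 5 was left out. Its genotype difference was present with rapamycin too, where it fell by 0.83 (adjusted p = 0.00246) at 3 months and by 1.41 (adjusted p = 3.38e-07) at 9 months.

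The ratio of Tpx2 to Aurka within a library does not depend on scaling between libraries. It was higher in TSCmKO than in CON by 4.38 on the log2 scale at 3 months and by 2.72 at 9 months, and after rapamycin in TSCmKO it differed by -4.51 and -2.71. In each of these 4 comparisons the 5 libraries of either group did not overlap. The two-sided exact permutation test gave p = 0.00794, the smallest that 5 against 5 libraries can give (adjusted p = 0.0106 over 8 ratio tests). Against Pcna, a denominator chosen after Mki67 had been seen near 0, the ratio differed by 2.49 at 3 months (exact p = 0.00794) and by 0.50 at 9 months (exact p = 0.317, from 0.20 without 9mTSCmKO replicate 1 to 0.75 without replicate 3), and by -3.75 and -2.02 after rapamycin (exact p = 0.00794 for each). Against Top2a it differed by 2.97 at 3 months (exact p = 0.0159) and -3.35 after rapamycin at 3 months (exact p = 0.00794). At 9 months the difference in the ratio to Top2a was 0.40 between genotypes (exact p = 0.5, adjusted p = 0.5) and -1.21 with rapamycin (exact p = 0.19, adjusted p = 0.254). Without 9mTSCmKO replicate 1, where Top2a was 8.79 CPM against 0.765 to 1.79 in the other 4 libraries, the genotype difference was 0.88 (adjusted p = 0.0317), and without 9mTSCmKO+RM replicate 1 the rapamycin difference was -1.91 (adjusted p = 0.0423). The planned ratio to Mki67 differed by 3.07, 1.47, -3.42 and -2.54 for genotype at 3 and 9 months and rapamycin at 3 and 9 months, but it divides by counts of 0 to 3 with 0.5 added.

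Of the other spindle kinases and their partners, Birc5 alone could be tested. Birc5 encodes survivin, which with Aurora B forms the chromosomal passenger complex. It was 1.42, 0.679, 0.731, 0.600 and 0.568 CPM in 9mCON and 1.98, 1.41, 4.97, 1.9 and 1.27 CPM in 9mTSCmKO, overlapping in 9mCON replicate 1, and it rose (1.52, SE 0.38, adjusted p = 0.00152). At 3 months it did not pass with all libraries (0.90, SE 0.39, adjusted p = 0.0996), and it did with 3mTSCmKO replicate 3 left out. Rapamycin lowered it in 9mTSCmKO (-1.0, SE 0.36, adjusted p = 0.0309), which no longer passed when 9mTSCmKO replicate 3 or 9mTSCmKO+RM replicate 1, 2 or 4 was left out. Aurkb itself lay between 0 and 0.416 CPM and Plk1 between 0 and 0.608 CPM, and the highest value of both was in 3mTSCmKO replicate 4.

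Among the cyclins, Cdk1 and the spindle checkpoint, Bub1b was the sole member tested. Bub1b, the BubR1 checkpoint protein, lay between 0.569 and 1.24 CPM in 9mCON and was at 0 in 4 of the 5 9mCON+RM libraries, with 0.540 CPM in the other, and its log2 fold change was -2.98 (SE 0.79, adjusted p = 0.0103). In the same comparison, where 6.82% of all genes fell, 4 of 6 macrophage markers (median log2 difference -1.53) and 4 of 5 fibro-adipogenic markers (median -1.15) fell, as many as in the fit of 37 libraries, and their part in the value of Bub1b was not tested. It did not pass in any other comparison, including genotype at 3 months (0.92, SE 0.80, adjusted p = 0.469) and 9 months (-0.55, SE 0.58, adjusted p = 0.481), though leaving out 3mCON+RM replicate 5, 9mCON replicate 5 or 9mCON+RM replicate 1 each brought a call in another comparison. Cdk1, the kinase that drives entry into mitosis, had at most 0.928 CPM, in 3mTSCmKO replicate 4. In 9mCON+RM it was at 0 in 4 of 5 libraries. The cyclins Ccna2, Ccnb1 and Ccnb2 and the Cdc20 activator reached at most 1.14, 1.68, 1.72 and 1.2 CPM. Of the centromere proteins, the histone variant Cenpa was tested and did not pass in any comparison with all libraries (leaving out 3mTSCmKO+RM replicate 3, or 9mTSCmKO replicate 4 or 5, brought a call for rapamycin), and its highest value was 6.50 CPM in 9mTSCmKO replicate 1 against 1.39 to 3.30 CPM in the rest of that group.

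The kinesins Kif11 and Kif20a and the bundling protein Prc1 were higher in TSCmKO muscle. Kif20a and Prc1 were called at 9 months and Kif11 at both ages. Kif11, which slides spindle microtubules apart, was 1.24, 0.981, 0.893, 0.764 and 1.03 CPM in 9mCON and 2.50, 4.30, 4.52, 4.39 and 4.16 CPM in 9mTSCmKO. The groups did not overlap, and Kif11 rose by 2.0 (SE 0.31, adjusted p = 2.58e-06). At 3 months it was 1.18, 1.27, 1.2, 1.93 and 1.27 CPM in 3mCON and 1.84, 1.5, 2.72, 4.29 and 2.74 CPM in 3mTSCmKO. It rose by 0.93 (SE 0.30, adjusted p = 0.0223), but without 3mCON replicate 1, 3mCON replicate 3 or 3mTSCmKO replicate 4 the call was lost, and in the fit of 37 libraries the difference was 0.58 (adjusted p = 0.255). Kif11 was also higher in 9mTSCmKO+RM than in 9mCON+RM (1.46, SE 0.33, adjusted p = 0.000957), a comparison that Tpx2 did not pass. In 9mTSCmKO rapamycin lowered it (-0.72, SE 0.29, adjusted p = 0.0487), a call lost in 8 of 10 fits that left out 1 library, all but those without 9mTSCmKO replicate 1 or 9mTSCmKO+RM replicate 5.

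Kif20a, a kinesin of the central spindle, was 0.709, 0.679, 0.569, 0.218 and 0.671 CPM in 9mCON and 3.69, 1.65, 1.45, 1.85 and 1.18 CPM in 9mTSCmKO. It rose by 1.78 (SE 0.38, adjusted p = 0.000264) without overlap, and after rapamycin it was 0.156, 0.288, 0.653, 0.965 and 0.793 CPM and fell by 1.76 (SE 0.38, adjusted p = 0.000425). At 3 months the genotype difference did not pass (0.78, SE 0.36, adjusted p = 0.13), while rapamycin lowered it in 3mTSCmKO (-1.34, SE 0.37, adjusted p = 0.00641). In the fit of 37 libraries, Tpx2 and Kif20a were the 2 members called lower with rapamycin at 3 months. Prc1, which bundles the microtubules between the separating chromosomes, was 0.827, 0.302, 1.14, 0.983 and 1.19 CPM in 9mCON, 1.51, 1.24, 1.56, 1.79 and 2.06 CPM in 9mTSCmKO and, after rapamycin, 0.156, 0.692, 0.653, 1.03 and 0.366 CPM. It rose by 0.86 without overlap (SE 0.32, adjusted p = 0.0308), a call lost without 9mCON replicate 1 or 2 or 9mTSCmKO replicate 4 or 5, and fell by 1.47 with rapamycin (SE 0.34, adjusted p = 0.000863). Both Prc1 and Kif20a ranged below 4 CPM in every library.

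Top2a, the topoisomerase that untangles sister chromatids, did not pass between genotypes at 3 months (0.22, SE 0.47, adjusted p = 0.796) or 9 months (1.14, SE 0.48, adjusted p = 0.061). At 9 months it passed in the fit of 37 libraries (1.47, adjusted p = 0.0212) and when 9mCON replicate 1 or 9mTSCmKO replicate 2, 3 or 4 was left out. It fell with rapamycin in 9mTSCmKO (-1.47, SE 0.50, adjusted p = 0.0205), where replicate 1 stood at 8.79 CPM. Without that library, or without 9mTSCmKO+RM replicate 1 or 2, the call was lost. Of the cytokinesis genes, Racgap1 did not pass between genotypes (0.49 at 3 months, adjusted p = 0.118, although no library of one group overlapped the other, and 0.48 at 9 months, adjusted p = 0.0933), but at 9 months it passed when 9mCON replicate 1 was left out and in the fit of 37 libraries (0.73, adjusted p = 0.0146). Anln, the anillin scaffold of the contractile ring, fell in 9mTSCmKO (-0.69, SE 0.23, adjusted p = 0.0155), from 1.83 to 5.78 CPM in 9mCON to 1.46 to 3.85 CPM, with overlap. This call was lost without 9mCON replicate 4 or 5 or 9mTSCmKO replicate 1 or 3.

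Rrm2 showed the largest genotype difference of any member at 9 months. Rrm2 encodes the small subunit of ribonucleotide reductase, which makes deoxynucleotides for DNA synthesis. It was 0.354, 0.377, 0.650, 0.382 and 0.465 CPM in 9mCON and 6.29, 4.41, 6.53, 3.17 and 3.28 CPM in 9mTSCmKO, without overlap, and it rose by 3.41 (SE 0.38, adjusted p = 3.35e-09). At 3 months it was 0.840, 1.09, 1.07, 0.774 and 0.507 CPM in 3mCON and 0.593, 0.915, 1.28, 2.05 and 0.792 CPM in 3mTSCmKO, with overlap, and it did not pass (0.42, SE 0.36, adjusted p = 0.456). The genotype effect was larger at 9 than at 3 months by 2.99 (SE 0.53, adjusted p = 0.000483), the opposite sign to that of Tpx2. After rapamycin the 9mTSCmKO+RM libraries held 0.156, 0.864, 0.653, 1.31 and 0.427 CPM, and Rrm2 fell by 2.77 (SE 0.36, adjusted p = 1.82e-07). The rapamycin effect differed between genotypes at 9 months (-2.35, SE 0.62, adjusted p = 0.0207), a call lost without 9mCON+RM replicate 3 or 5. At 3 months rapamycin lowered Rrm2 in TSCmKO muscle (-1.02, SE 0.37, adjusted p = 0.0399). That call was lost when 3mTSCmKO replicate 3 or 4 or 3mTSCmKO+RM replicate 1, 4 or 5 was left out, and in the fit of 37 libraries the difference was -0.43 (adjusted p = 0.542). Tyms, thymidylate synthase, did not pass in any comparison and ranged from 2.30 to 7.20 CPM over all 40 libraries.

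The MCM subunits form a single helicase ring, and their transcripts went in different directions. At 9 months Mcm6 rose and Mcm2 and Mcm5 fell. Mcm6 was 3.54, 2.34, 3.00, 2.62 and 3.93 CPM in 9mCON and 4.89, 7.65, 9.49, 6.98 and 5.64 CPM in 9mTSCmKO, without overlap (1.16, SE 0.24, adjusted p = 0.000192). Mcm2 was 6.97, 7.09, 10.4, 10.2 and 12.3 CPM in 9mCON and 3.02, 4.77, 3.02, 5.08 and 4.29 CPM in 9mTSCmKO, also without overlap (-1.22, SE 0.17, adjusted p = 4.07e-07). Mcm5, at 0.052 to 1.42 CPM in these groups, fell with overlap (-1.18, SE 0.43, adjusted p = 0.0283), and the call was lost without 9mCON replicate 1, 3 or 5 or 9mTSCmKO replicate 1 or 4. At 3 months Mcm6 did not pass (-0.23, SE 0.24, adjusted p = 0.554) and the interaction with age was 1.39 (SE 0.34, adjusted p = 0.012). Mcm2 fell at 3 months (-0.51, SE 0.17, adjusted p = 0.0297) with overlap, a call lost in 7 of 10 fits that left out 1 library, all but those without 3mCON replicate 4 or 5 or 3mTSCmKO replicate 2, and in the fit of 37 libraries. Mcm3, Mcm4 and Mcm7 did not pass between genotypes with vehicle at either age, with Mcm4 passing at 3 months when 3mCON replicate 3 was left out.

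Rapamycin separated the subunits in another way. Mcm4 was 5.32, 6.0, 3.97, 5.30 and 5.74 CPM in 3mCON and 7.56, 8.04, 8.09, 8.27 and 7.59 CPM in 3mCON+RM. In 3mTSCmKO it was 5.14, 4.44, 4.16, 3.65 and 3.42 CPM, and with rapamycin 7.32, 7.48, 7.12, 8.52 and 7.12 CPM. In neither comparison did the groups overlap, and Mcm4 was the sole member called in all 4 rapamycin comparisons, higher in each: 0.60 (adjusted p = 0.0366) in 3mCON, 0.73 (adjusted p = 0.00104) in 9mCON, 0.86 (adjusted p = 1.94e-05) in 3mTSCmKO and 0.41 (adjusted p = 0.0282) in 9mTSCmKO. The call in 3mCON was lost in 9 of 10 fits that left out 1 library, all but that without 3mCON replicate 2, and the call in 9mTSCmKO was lost without 9mTSCmKO replicate 2, 4 or 5 or 9mTSCmKO+RM replicate 1 or 5. In 9mTSCmKO rapamycin raised Mcm2 (0.66, SE 0.17, adjusted p = 0.00337) and Mcm7 (0.32, SE 0.11, adjusted p = 0.0255), the latter lost without 9mTSCmKO replicate 1, 2 or 5 or 9mTSCmKO+RM replicate 3 or 4. It lowered Mcm3 (-0.74, SE 0.21, adjusted p = 0.00698) and Mcm6 (-0.74, SE 0.23, adjusted p = 0.0138), the latter lost without 9mTSCmKO replicate 3 or 9mTSCmKO+RM replicate 1. In 9mTSCmKO+RM, Mcm3 was 1.56, 2.31, 2.72, 2.07 and 1.95 CPM, below every 9mCON+RM library (3.64 to 5.20 CPM), and Mcm3 fell by 0.98 in that comparison (SE 0.22, adjusted p = 0.000766). Mcm2 was lower there as well (-0.71, SE 0.17, adjusted p = 0.00179).

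Pcna, the member with the highest mean TPM in 3mCON, lay between 21.7 and 28.6 CPM in 3mCON and between 31.5 and 35.2 CPM in 3mTSCmKO. The groups did not overlap and the rise was small (0.44, SE 0.15, adjusted p = 0.0334). The call was lost in 8 of 10 fits that left out 1 library, all but those without 3mCON replicate 5 or 3mTSCmKO replicate 5, and in the fit of 37 libraries, where the difference was 0.45 (adjusted p = 0.0785). At 9 months Pcna rose by 0.44 as well (SE 0.15, adjusted p = 0.0194), with overlap, and that call was lost without 9mCON replicate 1 or 5 or 9mTSCmKO replicate 3. It fell by 0.47 with rapamycin in 3mTSCmKO (SE 0.15, adjusted p = 0.0205), which no longer passed once 3mTSCmKO+RM replicate 4 was left out. Cdc45, a helicase cofactor, fell by 0.59 in the same comparison (SE 0.22, adjusted p = 0.0454), a call lost in 8 of 10 fits, all but those without 3mTSCmKO+RM replicate 1 or 3. The licensing factor Cdc6 lay between 0.0577 and 1.72 CPM and was not tested.

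Counted over the 21 tested members, 3 were higher and 2 lower in 3mTSCmKO than in 3mCON, where 11.4% of all genes tested were higher and 8.32% lower (19.8% in either direction). The higher members were Tpx2, Kif11 and Pcna and the lower ones Aurka and Mcm2. A share of 5 in 21 is close to the background. At 9 months 8 members were higher (Tpx2, Birc5, Kif11, Kif20a, Prc1, Rrm2, Mcm6 and Pcna) and 4 lower (Aurka, Anln, Mcm2 and Mcm5), against 19.1% and 18.9% of all genes (37.9% in either direction). The median log2 difference of the members was 0.16 at 3 months and 0.44 at 9 months, against -0.02 over all genes tested at either age. In the fit of 37 libraries the counts were 1 higher (Tpx2) and 1 lower (Aurka) at 3 months, and 9 higher and 3 lower at 9 months. Besides Tpx2, the members called higher in that fit at 9 months were Birc5, Kif11, Kif20a, Top2a, Racgap1, Rrm2, Mcm6 and Pcna. The fit of 36 libraries gave 1 and 1 at 3 months, and 8 higher and 3 lower at 9 months.

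With rapamycin in TSCmKO muscle, 1 member rose (Mcm4) and 5 fell (Tpx2, Kif20a, Rrm2, Pcna and Cdc45) at 3 months, where 10.6% of all genes rose and 13% fell (23.6% in either direction). At 9 months 3 rose (Mcm2, Mcm4 and Mcm7) and 9 fell (Tpx2, Birc5, Kif11, Kif20a, Prc1, Top2a, Rrm2, Mcm3 and Mcm6), against 15.8% and 16.8% of all genes (32.6%). The members' median was -0.28 at 3 months and -0.71 at 9 months, against 0.01 and -0.04 over all genes. These comparisons share the vehicle-treated TSCmKO libraries with the genotype comparisons, so a value that is high in those libraries enters both. The count at 3 months fell from 6 to 3 without 3mTSCmKO+RM replicate 4, and in the fit of 37 libraries 1 member rose and 2 fell. The count at 9 months fell from 12 to 7 without 9mTSCmKO+RM replicate 1 and to 5 when only the groups compared were fitted.

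**Figure D3:**
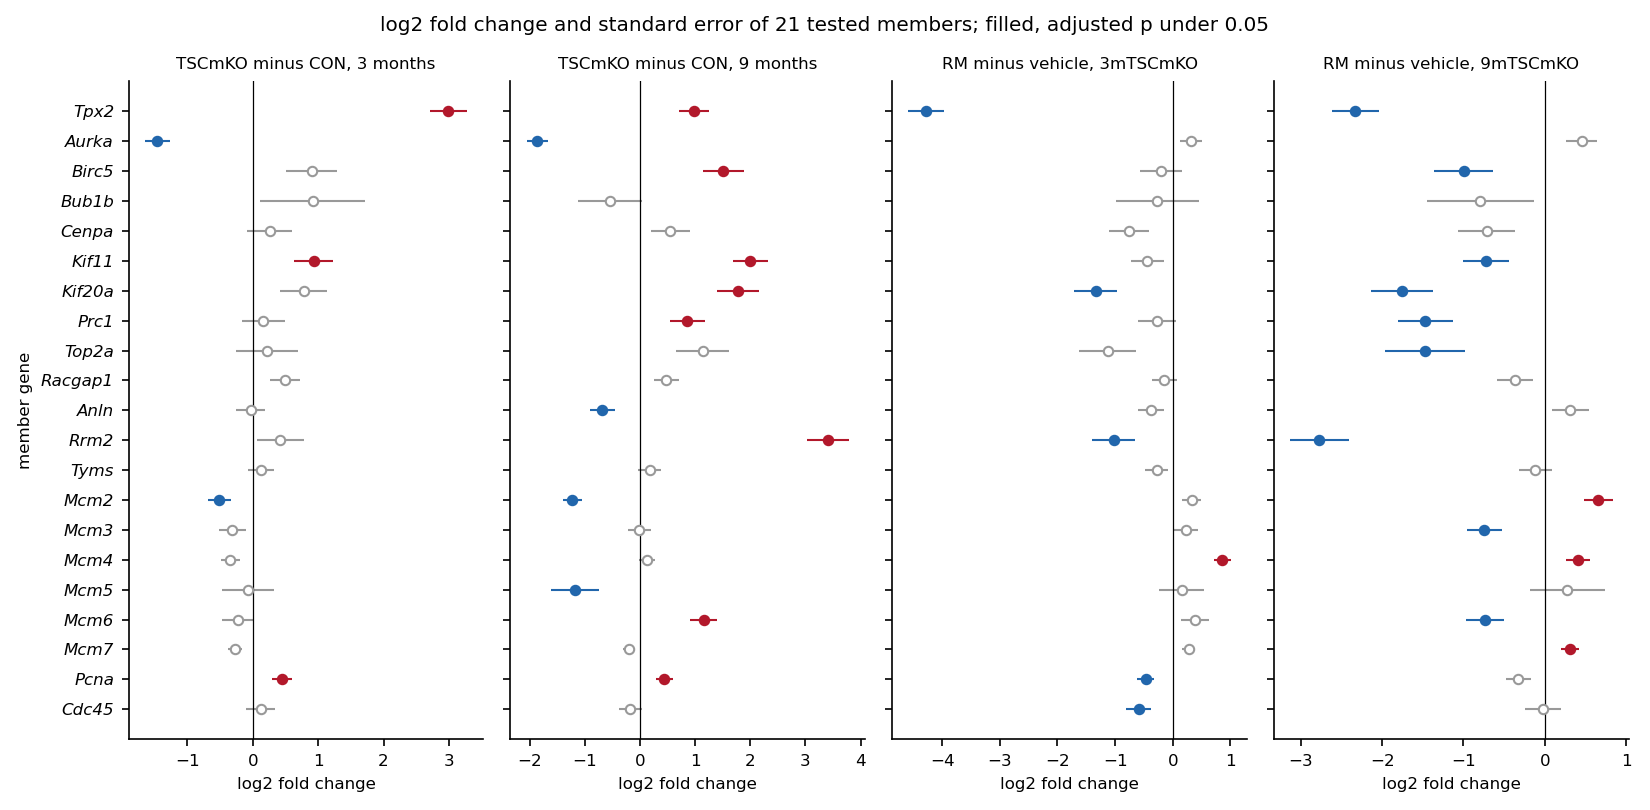
Log2 fold change of the 21 tested members (rows, by role) in the genotype comparisons at 3 and 9 months and the rapamycin comparisons in TSCmKO muscle, with bars of 1 SE and filled points where the adjusted p is under 0.05. Tpx2 lies at 2.99 and 0.99 for genotype and -4.28 and -2.33 for rapamycin, and Aurka lies at -1.46 and -1.86 for genotype.

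In the rapamycin-treated genotype comparison at 3 months, 0 members were higher and 2 lower (Aurka and Mcm7). The call of Mcm7 was lost without 3mCON+RM replicate 5 or 3mTSCmKO+RM replicate 1. Of all genes, 5.67% were higher and 4.36% lower there (10% in either direction). An unadjusted p under 0.05 was found for 6 of the 21 members and for 2856 of the 13543 genes tested. At 9 months 1 member was higher (Kif11) and 3 lower (Aurka, Mcm2 and Mcm3), where 11.3% of all genes were higher and 9.33% lower (20.6%). Rapamycin raised 1 member in 3mCON (Mcm4), where 0.362% of all genes rose and 0.318% fell (0.679%). It raised Mcm4 and lowered Bub1b in 9mCON, where 5.03% rose and 6.82% fell (11.8%). From 3 to 9 months 0 members were called in CON by edgeR, where 0.679% of all genes were higher and 0.340% lower (1.02%). The unadjusted p was under 0.05 for 5 of the 21 members and for 2384 of the 13543 genes tested. DESeq2 called 1 member in this comparison. In TSCmKO, 4 members were called higher with age (Birc5, Prc1, Rrm2 and Mcm6) and 2 lower (Tpx2 and Anln), where 19.1% of all genes rose and 18.3% fell (37.4%). In the fit of 37 libraries 3 were higher (Kif11, Rrm2 and Mcm6) and the same 2 lower. The count of 6 fell to 1 with insert size, which goes with age, as a covariate and to 3 with only the groups compared in the fit. Of these calls, that of Birc5 was lost without 3mTSCmKO replicate 1, 2, 3 or 5 or 9mTSCmKO replicate 3, that of Prc1 without 3mTSCmKO replicate 1, 2 or 3 or 9mTSCmKO replicate 4 or 5, and that of Anln in 6 of 10 fits that left out 1 library, all but those without 3mTSCmKO replicate 5 or 9mTSCmKO replicate 2, 4 or 5. Tpx2 and Rrm2 thus went in opposite directions with age in TSCmKO muscle, the second by 2.03 (SE 0.33, adjusted p = 1.35e-05). The genotype effect differed between the ages for Rrm2, Mcm6 and Tpx2, where 3.01% of all genes had a higher and 1.93% a lower term (4.94%). The rapamycin effect differed between the genotypes for Tpx2 at 3 months, where 1.36% of all genes had a higher and 2.09% a lower term (3.45%). At 9 months it differed for Tpx2, Kif20a, Rrm2 and Mcm3, where 2.56% had a higher and 2.31% a lower term (4.87%). All of these members' terms were negative, a lower log2 fold change with rapamycin in TSCmKO than in CON. Of these, the terms of Kif20a (-1.96, adjusted p = 0.0378) and Mcm3 (-0.97, adjusted p = 0.0495) were lost in 7 and 15 of 20 fits that left out 1 library. With only the groups compared in the fit, 0 of the 4 terms at 9 months passed, and without a filter on low counts 2 members were called.

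Summed over a library, the other mitosis members did not follow Tpx2 in size. The 25 members from the spindle, cyclin and Cdk1, checkpoint, centromere, kinesin, chromosome and cytokinesis genes other than Tpx2 and Aurka added up to 15.4 to 19.9 CPM in 3mCON and to 17.7, 18.8, 20.9, 34.6 and 22.9 CPM in 3mTSCmKO. The 34.6 CPM belongs to replicate 4, in which Tpx2 was lowest of its group. In 9mTSCmKO the sum was 34.7, 21.7, 29.4, 22.1 and 25.2 CPM against 15.8 to 19.5 CPM in 9mCON, without overlap, and the 34.7 CPM belongs to replicate 1, in which the satellite cell sum was highest. In 3mTSCmKO+RM and 9mTSCmKO+RM the sum of the 25 members was 13.1 to 18.0 CPM and 13.1 to 18.4 CPM. It was also low in controls given rapamycin. In 3mCON+RM it was 12.7 to 15.9 CPM, overlapping 3mCON, and in 9mCON+RM 10.8 to 13.7 CPM, below every 9mCON library. Set against each other in TPM, which accounts for length, Tpx2 stood above the sum of these 25 genes in 3mTSCmKO replicates 1, 2 and 3, at 31.6, 28.5 and 24.5 TPM against 15.7, 15.0 and 17.8 TPM. It stood below the sum in replicate 4 (12.8 against 31.8 TPM) and slightly below it in replicate 5 (18.9 against 19.1 TPM). In 9mTSCmKO Tpx2 was below the sum in all 5 libraries.

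**Figure D4:**
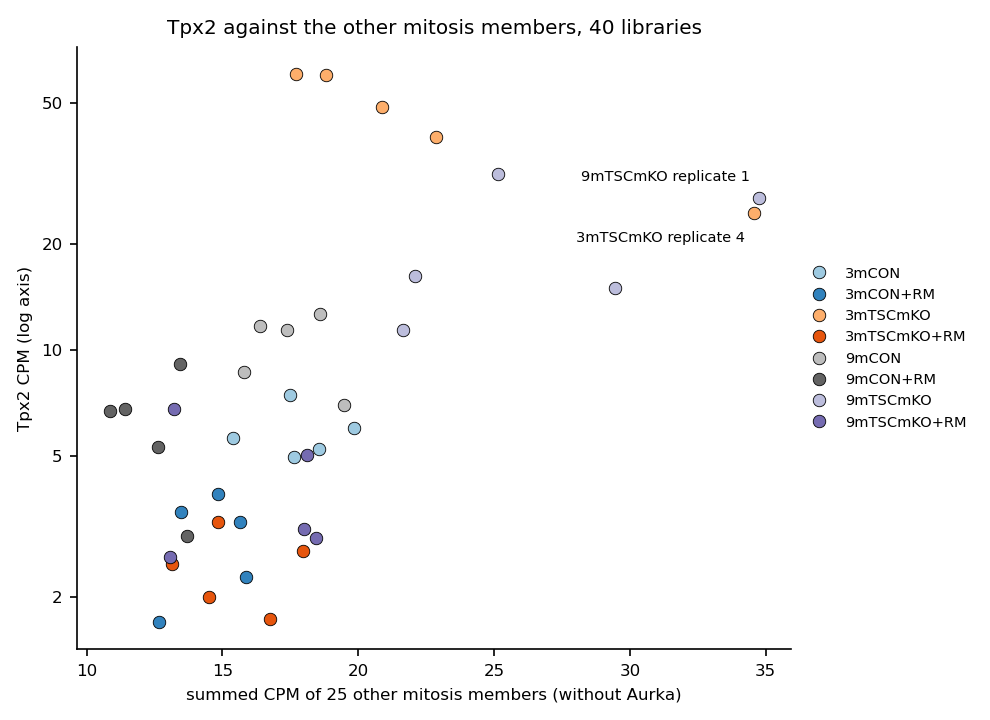
Summed CPM of 25 mitosis members without Tpx2 and Aurka (horizontal axis) against Tpx2 CPM (vertical axis, log scale) in the 40 libraries, coloured by group. The 3mTSCmKO libraries reach 60.4 CPM of Tpx2 at sums near 18 CPM, and the sums of the 9mTSCmKO libraries run from 21.7 to 34.7 CPM.

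Over all 40 libraries, with the group differences left in, the Pearson correlation of log2 CPM of Tpx2 with the other 20 tested members ranged from -0.714 (Mcm4) to 0.631 (Kif20a). It was 0.538 for Pcna, 0.438 for Cdc45, 0.412 for Rrm2, 0.408 for Cenpa, -0.272 for Aurka and -0.588 for Mcm7. Within groups the correlations were low. After subtracting the group means of log2 CPM, the correlation with each of these 20 members was positive for 6, with a median of -0.105 and a range from -0.390 (Mcm6) to 0.265 (Cdc45). It was 0.139 for Aurka and 0.169 for Pcna. Over all genes tested the median was -0.0205 and the 5th and 95th percentiles were -0.363 and 0.337, and 0 members exceeded the upper one. Pairs of the other 20 members had a median of 0.0397 among themselves. The points share library, depth and composition, most members had few counts, and the values are descriptions.

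**Figure D5:**
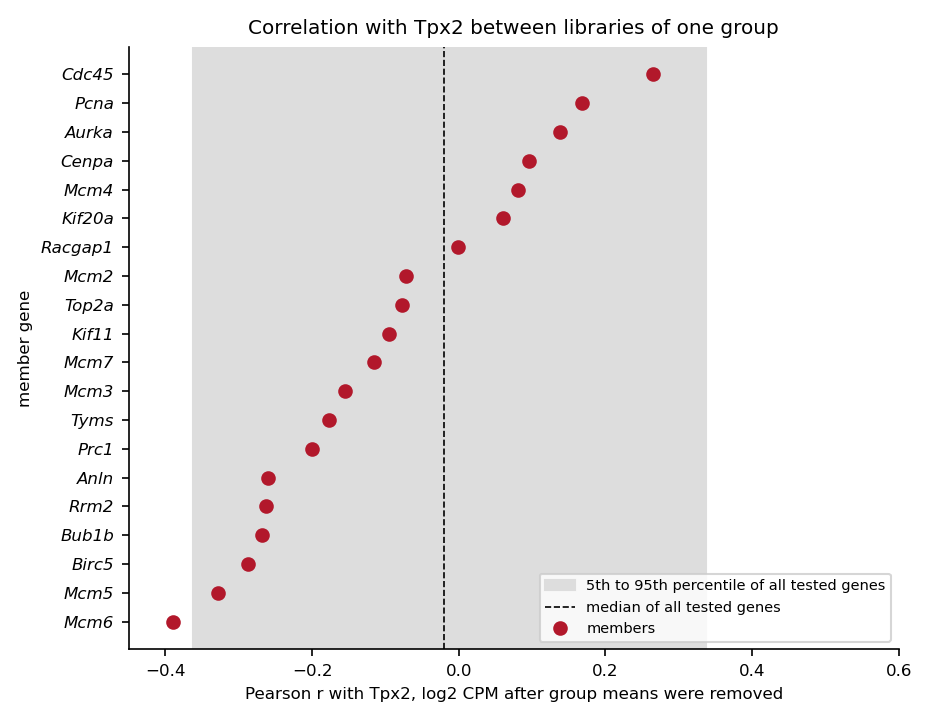
Pearson correlation (horizontal axis) of Tpx2 with each of 20 tested members (points, ordered by value) over 40 libraries after removal of the group means, with the 5th to 95th percentile of all genes tested as a shaded band. The members run from -0.390 to 0.265, inside or just below the band of -0.363 to 0.337.

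The genes most like Tpx2 lay outside the lists of cell division genes used here. By Pearson correlation of log2 CPM over the 40 libraries, the 5 nearest were Zfp773 (0.909), Plcl2 (0.900), Selenos (0.897), Pik3ip1 (0.891) and Pick1 (0.870). Zfp773 averaged 38.9 CPM in 3mCON, 89.6 CPM with vehicle and 24.7 CPM with rapamycin in TSCmKO at 3 months, and 57.2 and 25.4 CPM in these groups at 9 months. After removal of the group means the nearest were Kctd20 (0.652), Pnrc1 (0.641), Plcl2 (0.631), Ccl28 (0.625) and Ing2 (0.622), so Plcl2 alone was in both sets. Pnrc1 correlated at -0.494 over all libraries with the group means left in. These are descriptions over the same 40 libraries.

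Of the genes within 100 kb of Tpx2 on chromosome 2, 4 were tested. Bcl2l1, which encodes an apoptosis inhibitor and lies 16.2 kb upstream, is the nearest on that side, and Mylk2, the skeletal muscle myosin light chain kinase, lies 16.0 kb downstream. Mylk2 was higher in 3mTSCmKO (0.64, SE 0.15, adjusted p = 0.00157), at 1717 CPM against 1099 CPM in 3mCON, and did not pass at 9 months (-0.15, adjusted p = 0.443) or with rapamycin in 3mTSCmKO (-0.33, adjusted p = 0.104). Bcl2l1 differed by 0.65 in 3mTSCmKO (adjusted p = 0.0709) and fell with rapamycin there by 0.85 (SE 0.26, adjusted p = 0.0134). At 9 months Bcl2l1 differed by 0.02. Cox4i2 fell in 9mTSCmKO (-1.02, SE 0.28, adjusted p = 0.00365) and Dusp15 did not pass in any of these comparisons. The Tpx2 difference at 3 months was 2.99.

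Wider lists of cell cycle genes gave the setting of the members. Of 36 further mitosis genes, 35 were in the table and 23 were tested. In 3mTSCmKO 5 were higher and 0 lower, where 11.4% of all genes were higher and 8.32% lower, among them Spc25, a kinetochore subunit (2.75, adjusted p = 6.56e-05), Ckap2, a spindle protein (2.10, adjusted p = 0.00274), and Cenpk (1.29, adjusted p = 0.0102). In 9mTSCmKO 7 were higher and 1 lower, where 19.1% and 18.9% of all genes were, again with Spc25 (4.24, adjusted p = 3.38e-07) and Ckap2 (2.52). With rapamycin in TSCmKO, 5 fell at 3 months and 8 at 9 months and 0 rose, where 13% and 16.8% of all genes fell, Cenpk among them at both ages (-1.52 and -1.65). In the fit of 37 libraries the counts were 5 higher and 0 lower, 7 higher and 1 lower, 4 lower and 9 lower in these 4 comparisons. The medians of this list were 0.11, 0.31, -0.27 and -0.50 with all 40 libraries, against -0.02, -0.02, 0.01 and -0.04 over all genes.

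The other lists are read against the same shares of all genes, which were 19.8% and 37.9% in either direction for genotype at 3 and 9 months and 23.6% and 32.6% for rapamycin in TSCmKO. Among 25 tested further replication genes, 1 rose and 3 fell in 3mTSCmKO, including Gmnn, the licensing inhibitor geminin (0.96), and Rrm1, the large subunit of ribonucleotide reductase (-0.67). In 9mTSCmKO 6 rose and 2 fell, with Cdt1, a licensing factor, at 2.47 and Rrm1 at -0.65, the opposite direction to Rrm2. With rapamycin 1 rose and 1 fell at 3 months, and 2 rose and 5 fell at 9 months. The medians of this list lay between -0.23 and 0.01 in the 4 comparisons, and in the fit of 37 libraries 1 rose and 1 fell in 3mTSCmKO and 0 were called with rapamycin there. Of 18 importin, Ran and augmin genes whose products work with Tpx2, 2 rose in 3mTSCmKO (Kpna2, the importin that binds Tpx2, at 0.77, and Haus4 at 0.71) and 0 fell. In 9mTSCmKO 3 rose, with Kpna2 at 0.93, and 1 fell. With rapamycin in this list 3 rose and 3 fell at 3 months, and 4 rose and 4 fell at 9 months, with medians between -0.08 and 0.07, and without the 3 libraries the count with rapamycin at 3 months was 1 higher and 3 lower. The 2 that rose of 18 at 3 months are close to the 11.4% of all genes.

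Among 16 G1 cyclins, kinases and E2F factors, 5 rose and 1 fell in 3mTSCmKO, with Ccne1 at 1.69, E2f2 at 1.08 and Ccne2 at -1.23. In 9mTSCmKO 5 rose and 2 fell, with Ccne1 at 3.19. With rapamycin 1 rose and 2 fell at 3 months, and 3 rose and 3 fell at 9 months, and the medians lay between -0.13 and 0.18. In the fit of 37 libraries 3 rose and 1 fell in 3mTSCmKO, and 1 rose and 1 fell with rapamycin at 3 months. Of 9 tested genes that control the timing of cell cycle transcription, 5 rose and 0 fell in 3mTSCmKO, led by Lin9 (1.29). With rapamycin in 3mTSCmKO 6 fell and 1 rose, with Lin9 at -1.43 and Rb1 at 0.69. The medians of this list were 0.46 and -0.76 in these comparisons. Without the 3 libraries the counts at 3 months were 5 and 0, and 6 lower and 1 higher. In 9mTSCmKO 3 rose and 1 fell, and with rapamycin 1 rose and 5 fell, with medians of 0.21 and -0.36. Of 6 tested CDK inhibitors, Cdkn1a, the p21 protein, rose in 3mTSCmKO (0.72) and 9mTSCmKO (1.46), while Cdkn2c fell (-0.68 and -1.2). In all, 2 of these inhibitors rose and 1 fell at 3 months, and 1 rose and 1 fell at 9 months. With rapamycin 0 rose and 2 fell at each age, and the medians over the 4 comparisons ran from -0.26 to 0.42. Cdkn1a was not among the inhibitors called at 3 months in the fit of 37 libraries, where 1 rose and 1 fell.

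Markers of cells that could divide in muscle are given beside these values. Of the 6 satellite cell markers, 0 were called in 3mTSCmKO, and in 9mTSCmKO 1 was higher (Sdc4, 0.67) and 1 lower (Myod1, -0.59). Their summed CPM was 53.7 to 65.7 in 3mCON and 44.9 to 74.6 in 3mTSCmKO, and 53.6 to 62.4 in 9mCON and 53.6 to 91.4 in 9mTSCmKO. The 7 macrophage markers summed to 56.5 to 135 CPM in 3mCON and 57.9 to 107 CPM in 3mTSCmKO. The 7 lymphocyte markers summed to 1.93 to 2.96 CPM in 3mCON and 2.05 to 20.9 CPM in 3mTSCmKO, and Cd79a, of B cells, rose there (2.34, adjusted p = 0.00942), as did the neutrophil gene S100a9 (4.29), and neither was called in the fit of 37 libraries. In 9mTSCmKO, where 18.9% of all genes fell, 4 of 5 fibro-adipogenic, 2 of 5 endothelial and 2 of 5 Schwann cell markers fell, and Cd68 rose among the 6 tested macrophage markers (1.80). In the fit of 37 libraries, 3 fibro-adipogenic, 0 endothelial and 1 Schwann cell marker fell and 1 Schwann cell marker rose. With rapamycin in 3mTSCmKO, where 10.6% of all genes rose and 13% fell, the 2 tested lymphocyte markers and S100a9 fell. There 2 macrophage and 1 fibro-adipogenic marker rose. Of all these, 0 were called in the fit of 37 libraries. With rapamycin in 9mTSCmKO, where 15.8% of all genes rose and 16.8% fell, 1 endothelial and 1 Schwann cell marker fell. Of the satellite cell markers 1 rose and 1 fell. In CON muscle given rapamycin, 0 of these markers were called at 3 months. At 9 months, where 6.82% of all genes fell, the macrophage markers Adgre1, Csf1r, Mrc1 and Lyz2, the fibro-adipogenic markers Pdgfra, Dcn, Cd34 and Gsn and the Schwann cell marker S100b fell. From 3 to 9 months in TSCmKO muscle, where 19.1% of all genes rose and 18.3% fell, 4 of 6 erythroid, 4 of 5 fibro-adipogenic and 3 of 5 endothelial markers fell, along with both lymphocyte markers and S100a9, while 2 macrophage markers rose and 1 fell and 1 Schwann cell and 1 satellite cell marker rose. Without the 3 libraries the counts lower were 0 erythroid, 3 fibro-adipogenic, 1 endothelial and 0 lymphocyte, neutrophil and macrophage markers. The genotype by age term was lower for 3 of 6 erythroid markers with all libraries, where 1.93% of all genes had a lower term, and for 0 without the 3.

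The 7 muscle fiber genes, which mark the labelled tissue, shifted with the groups as well. They summed to 139496 to 149874 CPM in 9mCON, 92018 to 107003 CPM in 9mTSCmKO and 131302 to 161408 CPM in 9mTSCmKO+RM, so that the 9mTSCmKO libraries lay below both other groups without overlap. The sum was also higher with rapamycin in controls at 9 months, at 165838 to 174839 CPM in 9mCON+RM, without overlap with 9mCON, where 0 of the 7 genes were called. In 9mTSCmKO, where 18.9% of all genes fell, 3 of 7 fell, among them the fast myosin Myh4 (-1.03) and the creatine kinase Ckm (-0.83). With rapamycin in TSCmKO 3 rose and 1 fell at each age, with Myh4 at 0.86 and 1.34. Of all genes, 10.6% rose and 13% fell at 3 months, and 15.8% rose and 16.8% fell at 9 months. In the fit of 37 libraries 1 of the 7 rose and 2 fell at 3 months. The part of these shifts and of the other cells in the values of Tpx2 and the other members was not tested.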

How the data were processed

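RNA of 40 EDL muscles was read single-end, 1 library per mouse. The authors trimmed reads with cutadapt 1.9.1, assigned them with kallisto 0.43.1 to GRCm38 transcripts (stated as protein coding with support level 1 to 3), shared a read among the transcripts it hit and summed per gene. They deposited estimated counts, which were whole numbers as deposited, and TPM. Of the columns of both tables, 0 belonged to no sample. One model of 8 group means was fitted to the counts with edgeR 4.0.16 (R 4.3.3; quasi-likelihood, TMM, robust), on 13543 of 22844 genes with at least 1 CPM in at least 5 libraries, with Benjamini-Hochberg adjustment over all of them at 0.05, and checked on simulated counts. Alternatives used DESeq2 1.42.0, other scalings, no filter, insert size, the replicate number, only the groups compared and each library left out. TPM replaced counts in the ratios alone. Ratios of counts had 0.5 added. Values per library are given for Tpx2 and the 10 members with the smallest adjusted p in any comparison, and for other lists the genes with the smallest adjusted p. The members and lists were chosen with earlier results of these data known. A p-value sets a difference between groups against the spread between mice. Gene models came from GENCODE M21.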

Additional observations from a re-analysis of the deposited data

Results flagged for a closer look

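In the 11 members described by library, 88 groups of 5 libraries were examined for a single library far from the other 4, and 11 were found, where chance gives about 1 in 20. In 3mCON, Kif11 stood at 1.93 CPM in replicate 4 against 1.18 to 1.27 CPM in the others. In 3mCON+RM, Rrm2 stood at 1.32 CPM in replicate 2 (others 0.450 to 0.595 CPM) and Mcm6 at 4.83 CPM in replicate 3 (others 3.82 to 3.91 CPM). In 3mTSCmKO, Mcm2 stood at 7.19 CPM in replicate 2 (others 3.87 to 4.68 CPM), and in 3mTSCmKO+RM, Mcm4 stood at 8.52 CPM in replicate 4 (others 7.12 to 7.48 CPM). In 9mCON, Kif20a stood at 0.218 CPM in replicate 4 (others 0.569 to 0.709 CPM) and Birc5 at 1.42 CPM in replicate 1 (others 0.568 to 0.731 CPM), the library high in erythroid markers. In 9mCON+RM, Kif20a stood at 1.35 CPM in replicate 1 (others 0.360 to 0.579 CPM). In 9mTSCmKO, Kif11 stood at 2.50 CPM (others 4.16 to 4.52 CPM) and Kif20a at 3.69 CPM (others 1.18 to 1.85 CPM) in replicate 1, and Birc5 stood at 4.97 CPM in replicate 3 (others 1.27 to 1.98 CPM). None of these groups was one of Tpx2.

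A test of the difference between effects passed for 8 terms in the edgeR fit. The genotype effect differed between the ages for Tpx2 by -2.01 (SE 0.39, adjusted p = 0.00136), Rrm2 by 2.99 (SE 0.53, adjusted p = 0.000483) and Mcm6 by 1.39 (SE 0.34, adjusted p = 0.012) on the log2 scale. The rapamycin effect differed between the genotypes at 3 months for Tpx2 by -3.27. At 9 months it differed for Tpx2 by -1.61, Rrm2 by -2.35, Kif20a by -1.96 and Mcm3 by -0.97. With only the groups compared in the fit, 0 of these 4 terms at 9 months passed (Tpx2 -1.60, adjusted p = 0.0633). The terms of Rrm2, Kif20a and Mcm3 were lost in 2, 7 and 15 of 20 fits that left out 1 library.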

How the results depend on the processing

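No result reversed. RLE and upper-quartile scaling, a pseudocount of 1 count and the replicate block kept every value on its side of the threshold and every count within 1.5 times. Low counts limit the 17 untested members, and insert size (175 to 239 nt at 3 months, 223 to 308 nt at 9 months) goes with age. With insert size as a covariate, which leaves out 9mTSCmKO+RM replicate 5 for want of a value, the number of members called was 4 in 3mTSCmKO+RM against 3mCON+RM and 1 for age in TSCmKO, where Tpx2 was at -1.04 (adjusted p = 0.0594). With only the groups compared in the edgeR fit it was 5 for rapamycin in 9mTSCmKO, 3 for rapamycin in 3mCON (Tpx2 -1.0, adjusted p = 0.0146), 1 for age in CON, 3 for age in TSCmKO, and for the rapamycin by genotype terms 2 at 3 months and 0 at 9 months (Tpx2 -1.60, adjusted p = 0.0633). Without a filter it was 0 for rapamycin in 3mCON, 5 in 9mCON and 2 for the rapamycin by genotype term at 9 months. DESeq2 gave 3 for rapamycin in 3mCON (Tpx2 -1.0, adjusted p = 0.0385) and 1 for age in CON. In TPM the ratio of Tpx2 to Mki67 differed by 2.62 for genotype and -2.33 for rapamycin at 3 months. The fit of 37 libraries and that of 36 each called 2 members for genotype and 3 for rapamycin in 3mTSCmKO and 5 for genotype by age.

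Leaving out 1 library at a time, the number called ran from 2 to 5 for genotype at 3 months (2 without 3mCON replicate 1 or 3mTSCmKO replicate 4, and 3 without 3mCON replicate 2 or 3 or 3mTSCmKO replicate 1), and from 1 to 2 with rapamycin at 3 months (1 without 3mTSCmKO+RM replicate 1). It ran from 4 to 7 with rapamycin at 9 months (7 without 9mTSCmKO+RM replicate 1), with Tpx2 between -0.87 and -0.45 (adjusted p = 0.0395 without that library). For rapamycin it ran from 3 to 7 in 3mTSCmKO (3 without 3mTSCmKO+RM replicate 4), 7 to 12 in 9mTSCmKO (7 without 9mTSCmKO+RM replicate 1) and 0 to 1 in 3mCON (0 in 9 of 10 fits, all but that without 3mCON replicate 2). For age it ran from 0 to 2 in CON, with Tpx2 between 0.71 and 0.92 (2 members, and adjusted p = 0.0482 for Tpx2, without 9mCON replicate 5), and from 3 to 7 in TSCmKO (3 without 3mTSCmKO replicate 1 or 3). It ran from 3 to 5 for genotype by age (5 without 9mCON replicate 1) and from 2 to 4 for rapamycin by genotype at 9 months (2 without 9mCON replicate 3 or 4, 9mCON+RM replicate 3 or 5, 9mTSCmKO replicate 1, or 9mTSCmKO+RM replicate 1 or 2). The ratio of Tpx2 to Top2a at 9 months ran from 0.26 to 0.88 for genotype and from -1.91 to -0.90 for rapamycin.

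Same-numbered libraries of the compared groups deviated together (correlation over 0.1) in at most 3 of 5 pairs, so the numbers were not read as pairs. With the replicate number as a block, Tpx2 was at 2.95 for genotype at 3 months (adjusted p = 8.30e-10) and at 0.94 at 9 months, and 5 and 12 members were called.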
